A study of Sus scrofa with 6 samples.

Results

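The plasminogen activators and the proteins that bind or restrain them were followed in porcine embryonic fibroblasts (PEFs) and in the induced pluripotent stem cells (piPSCs) made from them. The group held 6 genes of the 18007 in the table, taken by their listed symbols: the activators PLAU and PLAT, the receptor PLAUR, and the serpins SERPINE2, SERPINB2 and SERPINF1. All 6 were listed, and all 6 passed the filter on low values, a mean of at least 0.5 FPKM (fragments scaled to gene length and library total). The PEFs came from ear tips of crossbred fetuses of a Large White boar and a Meishan sow at embryonic day 90, one line each for PEF5, PEF7 and PEF8. The lines piPSC5, piPSC7 and piPSC8 (ips5, ips7 and ips8 in the labels) were each made out of their same-numbered PEF line with lentiviral Oct4, Sox2, Klf4 and cMyc (OSKM) under a doxycycline-dependent promoter. Colonies were picked onto mouse embryonic fibroblast feeders, so mouse cells may have been present in the piPSC cultures. Each of the 6 lines was sequenced as 1 poly-A library, so n = 3 lines in each group.

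Plasminogen circulates as an inactive zymogen, and plasminogen activators cut it to plasmin, a protease that digests fibrin and many matrix proteins and activates further proteases. PLAU (urokinase) works mostly at the cell surface, held by its receptor PLAUR, while PLAT (tissue plasminogen activator) works mainly on fibrin. Serpins end this activity by trapping the protease in a covalent complex, which is then taken up by receptors of the LDL receptor family. Cultured fibroblasts are a known source of urokinase, its receptor and the serpins that inhibit it.

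The libraries held between 11010629 and 17836510 fragments. All 10 fibroblast markers in a list (COL1A1, THY1, DCN and others) were at 1 FPKM or more in each PEF library, where they summed to between 5957 and 8601 FPKM. In the piPSC libraries they summed to between 234 and 428 FPKM, and 7 to 10 of the 10 were still at 1 FPKM or more. Of 12 listed pluripotency markers, 8 were in the table by symbol, and POU5F1 (Oct4), LIN28A, DPPA4 and TDGF1 were not. Of these 8, SOX2 (0.129 to 3.01 FPKM) and LIN28B (0.281 to 8.9 FPKM) carried most of the signal in the piPSCs. Neither was called (limma adjusted p = 0.0626 and 0.0667). SOX2 in piPSC8 rested on 9 fragments and LIN28B in piPSC7 on 18. NANOG was at 0 in piPSC5 and piPSC8 and at 0.0919 FPKM in piPSC7. SALL4, ESRRB, DPPA2 and CDH1 were at 0.113 FPKM or below in the piPSCs. EPCAM was at 0.0356 to 0.0734 FPKM in the PEFs and at most 0.0144 FPKM in the piPSCs. Markers of other cell types were low beside the fibroblast markers, and in the piPSCs some were lower and some higher. The summed levels in PEFs and piPSCs were 0.513 to 2.59 and 0.0382 to 1.15 FPKM for 5 endothelial markers, 10.5 to 22.8 and 1.08 to 3.28 FPKM for 4 macrophage markers, and 0.124 to 0.5 and 0.21 to 3.87 FPKM for 4 keratinocyte markers. They were 8.72 to 76.1 and 0.738 to 15.2 FPKM for 3 smooth muscle markers, and 3.85 to 10.1 and 0.0207 to 0.362 FPKM for 3 trophoblast markers. CD14 (-3.64), CNN1 (-4.43), GATA3 (-1.52), KRT7 (-1.82) and TFAP2C (adjusted p = 0.047) were called lower by limma, and PECAM1, CNN1, GATA3, KRT7 and TFAP2C were highest in PEF8. Other markers rose in some lines without a call. DES went from 0.0404 to 14.2 FPKM in line 7 and from 0.416 to 2.51 in line 8, and KRT14 from 0.483 to 3.04 in line 7. In the piPSCs, CD68 was at 102% to 180% of the level in the matching PEF line and was not called. CSF1R was at 127% to 164% and was not tested. The endothelial markers CDH5, KDR and TEK and the keratinocyte markers TP63 and DSG3 were at 0.0111 FPKM or below in all PEFs. The part of other cell types in the results was not tested. Lines 5 and 7 differed from line 8 in 1 respect that touches the description of the lines. The study describes its lines as male. DDX3Y, a gene of the Y chromosome, had 3439 fragments in PEF8, 4207 in piPSC8 and 0 in the other 4 libraries. By this gene line 8 went with the description as male, and lines 5 and 7 did not. Why they lacked it was not tested. Values without line 8 rest on lines 5 and 7. The change of each member is therefore also given without line 8. In such bulk samples, fewer cells of a type and less RNA per cell cannot be told apart.

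Of the 6 genes, 4 were downregulated after reprogramming and none was upregulated. On the log2(FPKM + 1) scale the change was -6.74 for SERPINE2, -6.11 for PLAUR, -5.39 for SERPINB2 and -3.29 for PLAU. The order among SERPINE2, PLAUR and SERPINB2 depended on the added 1 FPKM. With 0.1 FPKM added instead, the changes were -8.50 for SERPINB2, -7.65 for PLAUR, -7.41 for SERPINE2 and -3.59 for PLAU. PLAT and SERPINF1 did not pass the test, and in both the lines did not move the same way. A call needed a change of at least 2-fold and a limma adjusted p under 0.05 (two-sided, Benjamini-Hochberg over 12428 genes). Of all genes tested, 16.7% were called lower in piPSCs and 20.2% higher. This balance turned round with the scaling: the calls were 2070 lower and 2505 higher as deposited, 2511 and 1879 after rescaling to the median ratio, and 2815 and 1986 after rescaling to a sum of 1000000. The 4 members were called lower under each of these scalings. The same 4 genes had every PEF library above every piPSC library, which held for 26.8% of the genes tested. The choice of genes was made with earlier results of these data known, so their count is a description.

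**Figure D1:**
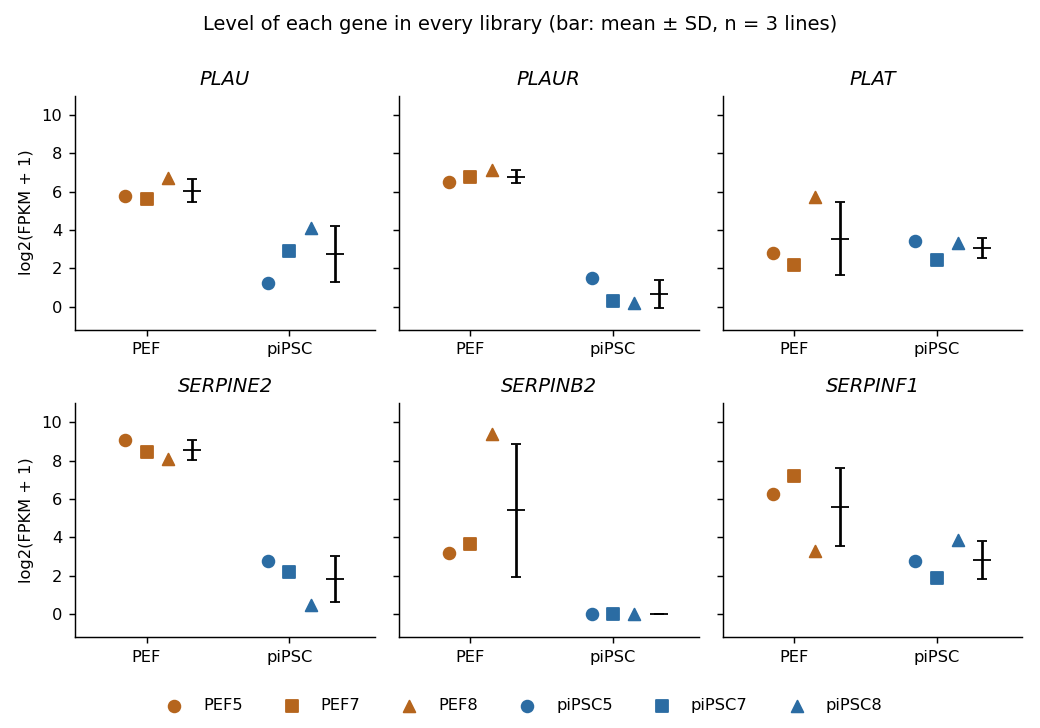
Each point is 1 library, drawn as log2(FPKM + 1) for the 3 PEF lines (brown) and 3 piPSC lines (blue), with the mean and SD of each group beside it. PLAU, PLAUR, SERPINE2 and SERPINB2 are separated between the groups, while PLAT and SERPINF1 overlap, with PEF8 away from PEF5 and PEF7 in SERPINB2, PLAT and SERPINF1.

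The receptor gave one of the largest changes of the group. PLAUR encodes a surface protein, anchored by a lipid, that concentrates urokinase at the cell edge and passes signals to integrins. It lies on chromosome 6 of Sscrofa11.1 from 50485313 to 50505318 on the minus strand (ENSSSCG00000032434). In the PEFs of lines 5, 7 and 8, PLAUR was at 88.5, 106 and 138 FPKM, and in the piPSCs of these lines it was at 1.84, 0.219 and 0.158 FPKM. The PEFs differed by 1.56-fold among themselves, and piPSC5 stood above piPSC7 and piPSC8, with a ratio of the highest to the lowest piPSC line of 11.7. These levels rested on 9096 to 12024 fragments per PEF library and on 160, 15 and 10 fragments in the piPSC libraries. The difference between the groups was -6.11 ± 0.38 (log2, SE, n = 3 per group, limma adjusted p = 0.000196), and -5.71 without line 8. Each piPSC line kept a small part of the level of its own PEF line: 2.08% in line 5, 0.207% in line 7 and 0.114% in line 8.

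The 250 bases before the start of PLAUR (chr6:50505454-50505703, minus strand, Sscrofa11.1) are shown because they hold the letters TGAGTCA, an AP-1 motif, given in capitals, and several AP-1 genes are described further on. The start is the outer one of the deposited and the RefSeq gene models.
PLAUR: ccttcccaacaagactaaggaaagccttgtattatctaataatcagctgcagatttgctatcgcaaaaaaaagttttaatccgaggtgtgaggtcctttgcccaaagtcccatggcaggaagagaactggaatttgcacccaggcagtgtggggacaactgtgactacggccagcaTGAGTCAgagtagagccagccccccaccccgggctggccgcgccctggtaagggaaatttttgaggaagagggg
The motif was searched as TGANTCA and lay 74 to 68 bases before the start. Of 9273 windows of the same length before gene starts, 4.58% held a match. A match is a description of the sequence and no record of binding.

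The fitted change of urokinase itself was smaller than that of its receptor. PLAU (ENSSSCG00000010312) lies on chromosome 14 from 76629275 to 76635894 on the plus strand. Its level was 54.0 FPKM in PEF5, 47.8 in PEF7 and 104 in PEF8. The piPSC levels were 1.36 FPKM in line 5, 6.41 in line 7 and 16.3 in line 8. Every PEF library was above every piPSC library, yet the piPSC lines spanned a range of 12-fold, against 2.18-fold among the PEFs. On the log2(FPKM + 1) scale, a range this wide among the piPSCs (2.87) or wider was seen in 2.78% of the genes tested. The fragments behind these values were 3017, 2504 and 4937 in the PEFs and 64, 239 and 562 in the piPSCs. The change was -3.29 ± 0.71 (log2, SE, n = 3 per group, limma adjusted p = 0.0094), and the 95% interval ran from -4.99 to -1.59. Without line 8 the change was -3.63 (limma adjusted p = 0.0121). Line 5 kept 2.51% of its PEF level, line 7 13.4% and line 8 15.7%. The call did not hold when line 7 was left out (-3.57, limma adjusted p = 0.0613), and it held when each other line or any single library was left out.

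The window before PLAU (chr14:76629025-76629274, plus strand) is shown as a contrast to that of PLAUR, with its GC boxes (GGGCGG) in capitals.
PLAU: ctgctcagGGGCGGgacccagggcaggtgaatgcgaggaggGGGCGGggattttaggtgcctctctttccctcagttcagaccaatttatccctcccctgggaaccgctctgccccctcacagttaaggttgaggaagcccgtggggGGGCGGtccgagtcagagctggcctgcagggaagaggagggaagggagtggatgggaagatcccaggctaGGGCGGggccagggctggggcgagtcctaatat
It held 4 GC boxes and no match to the AP-1 motif. A GC box on either strand was found in 54.9% of the 9273 windows. Its GC content was 63.6%, near the median of 60% over all windows (quartiles 51.2% and 68.8%).

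PLAT, the second activator, showed no common direction. The gene (ENSSSCG00000007032, chromosome 17 from 11196253 to 11210458, minus strand) was at 5.82 FPKM in PEF5, 3.44 in PEF7 and 50.7 in PEF8. The piPSCs of lines 5, 7 and 8 had 9.54, 4.44 and 8.94 FPKM. PEF8 alone was high, with 1295 fragments against 175 in PEF5 and 97 in PEF7, and the other 5 libraries lay between 3.44 and 9.54 FPKM. A range of log2(FPKM + 1) among the PEFs as wide as that of PLAT (3.54) was seen in 0.571% of the genes tested. The log2 ratio of each piPSC line to its own PEF line was 0.63 in line 5, 0.29 in line 7 and -2.38 in line 8. Over the groups the difference was -0.49 ± 0.89 (log2, SE, n = 3 per group, limma adjusted p = 0.667), with a 95% interval from -2.62 to 1.65. Without PEF8 the sign turned to 0.59 (limma adjusted p = 0.258), and without both libraries of line 8 it was 0.46 (adjusted p = 0.419). The deposited gene model of PLAT starts 13363 bases inside the RefSeq start and its length of 1686 bases is used in the FPKM, so its level beside other genes depends on that length.

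**Figure D2:**
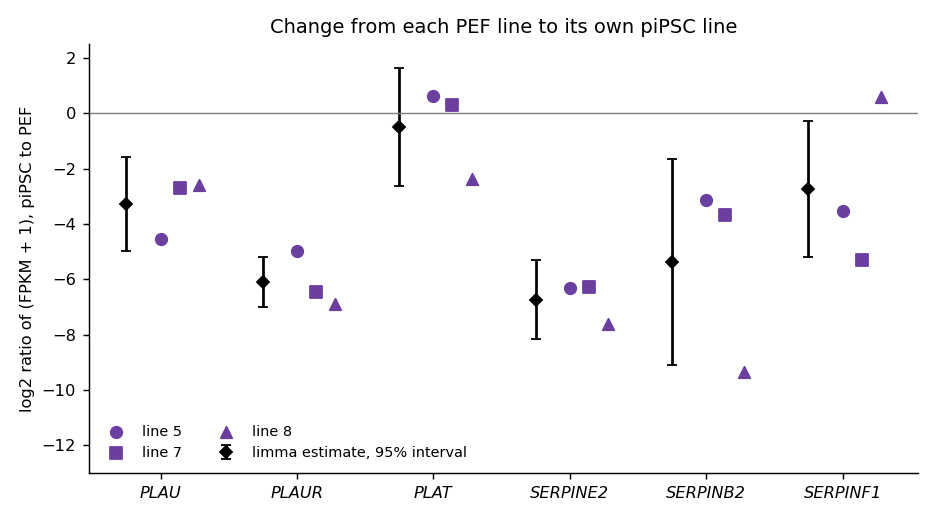
The black diamonds give the limma difference of piPSCs from PEFs with its 95% interval on the log2(FPKM + 1) scale, and the purple points give the ratio of each piPSC line to its own PEF line. All lines lie below 0 for PLAU, PLAUR, SERPINE2 and SERPINB2, while line 8 lies on the other side of 0 from lines 5 and 7 for PLAT (-2.38) and SERPINF1 (0.57).

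Among the inhibitors, SERPINE2 (protease nexin-1), which traps thrombin, urokinase and tissue plasminogen activator, was the most abundant of the 6 genes in PEF5 and PEF7. It lies on chromosome 15 from 125747294 to 125816215 on the minus strand (ENSSSCG00000016233). SERPINE2 was at 545, 356 and 272 FPKM in the PEFs of lines 5, 7 and 8, and at 5.83, 3.62 and 0.382 FPKM in their piPSCs. The groups were far apart, and piPSC8 was lower than piPSC5 and piPSC7. Fragments numbered 37000, 22635 and 15669 in the PEFs and 334, 164 and 16 in the piPSCs. The change was -6.74 ± 0.60 (log2, SE, n = 3 per group, limma adjusted p = 0.000444), and -6.30 without line 8. The piPSC level was 1.07% of the PEF level in line 5, 1.02% in line 7 and 0.14% in line 8.

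SERPINB2 (plasminogen activator inhibitor 2), an inhibitor of urokinase that stays largely inside the cell, differed most between the PEF lines. The gene (ENSSSCG00000004890) lies on chromosome 1 from 157869364 to 157886753 on the minus strand. It was at 8.03 FPKM in PEF5, 11.7 in PEF7 and 664 in PEF8, with 679, 929 and 47729 fragments. In PEF8 it exceeded every other member, SERPINE2 included, and 0.0402% of the genes tested had as wide a range among the PEFs. The piPSC libraries held 1, 0 and 1 fragments (0.014, 0 and 0.0191 FPKM), so the 3 lines were at or near no detection. In line 7, where a count of 0 allows up to 3 fragments, the level was at least 220-fold lower. In line 5 the PEF level was 573 times that of the piPSCs (exact 95% interval 102 to 22662), and in line 8 it was 34696 times (6227 to 1370450). This bound and these intervals cover counting error only. The fitted change was -5.39 ± 1.55 (log2, SE, n = 3 per group, limma adjusted p = 0.0262), which depends on the added 1 FPKM. Without line 8 it was -3.41 (adjusted p = 0.00388). It missed the threshold without line 5 (-6.51, limma adjusted p = 0.0765), without line 7 (-6.25, adjusted p = 0.0854) and without each single piPSC library in turn (adjusted p = 0.0605 to 0.0713).

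The window before SERPINB2 (chr1:157886754-157887003, minus strand) is shown because it alone of those examined held a RUNX motif (TGTGGTT, in capitals), a second motif class whose factors are described further on.
SERPINB2: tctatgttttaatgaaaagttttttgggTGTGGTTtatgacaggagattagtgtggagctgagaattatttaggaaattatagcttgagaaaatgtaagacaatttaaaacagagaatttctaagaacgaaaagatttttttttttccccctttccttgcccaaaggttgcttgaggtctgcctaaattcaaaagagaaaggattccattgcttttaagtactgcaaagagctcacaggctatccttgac
The match lay 222 to 216 bases before the start, and 3.1% of all windows held this motif on either strand. At 34.8% GC the window was poorer in G and C than the lower quartile of all windows.

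Neighbours of SERPINB2 were then examined, since the B-type serpin genes lie side by side on chromosome 1. They were singled out after their values were seen. In PEF5, PEF7 and PEF8, SERPINB7 was at 0.345, 0.305 and 18.1 FPKM, and SERPINB10 at 0, 0 and 4.45 FPKM. PEF8 was thus 67.3-fold above the mean of the other PEFs for SERPINB2 and 55.6-fold above it for SERPINB7. SERPINB8, at the other side of SERPINB10, was at 12.1, 11.3 and 26.5 FPKM in the PEFs. SERPINB11, SERPINB13 and SERPINB5, on the far side of SERPINB7, stayed at 0.143 FPKM or below in all 6 libraries. The next genes outward, VPS4B and KDSR, were in PEF8 at 0.934 and 0.694 of the mean of PEF5 and PEF7. The high level in PEF8 was therefore shared by SERPINB2, SERPINB7 and SERPINB10 among the named genes within 500 kb, with a smaller difference for SERPINB8. In piPSC8 the levels were 0.0191 FPKM for SERPINB2, 0.0193 for SERPINB7, 0.413 for SERPINB10 and 3.51 for SERPINB8.

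**Figure D3:**
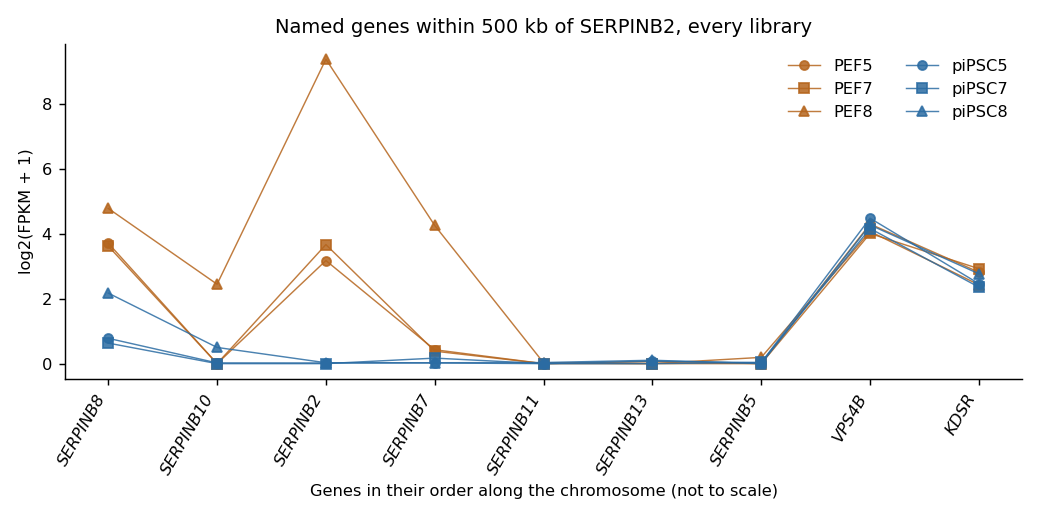
The named genes within 500 kb of SERPINB2 are drawn in their order along the chromosome (spacing not to scale), with log2(FPKM + 1) in the 3 PEF lines (brown) and 3 piPSC lines (blue). PEF8 (brown triangles) lies above PEF5 and PEF7 at SERPINB8, SERPINB10, SERPINB2 and SERPINB7 and joins them at VPS4B and KDSR.

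SERPINF1 (pigment epithelium-derived factor) belongs to the serpin family by fold but is known for restraining blood vessel growth and not for inhibiting proteases. It lies on chromosome 12 from 47948982 to 47959470 on the plus strand (ENSSSCG00000017818). SERPINF1 was at 76.3, 145 and 8.77 FPKM in the PEFs of lines 5, 7 and 8, and at 5.75, 2.71 and 13.5 FPKM in their piPSCs. PEF8 was the lowest of the PEFs and piPSC8 the highest of the piPSCs, so that the groups overlapped through line 8 alone. A range this wide among the PEFs (3.90 on the log2 scale) was seen in 0.394% of the genes tested. The piPSC level was 7.53% of the PEF level in line 5, 1.87% in line 7 and 154% in line 8. The change was -2.75 ± 1.02 (log2, SE, n = 3 per group, limma adjusted p = 0.0609), and the 95% interval ran from -5.20 to -0.30. Without line 8 it was -4.41 ± 0.44 (adjusted p = 0.00534), a value that would be called. The window before this gene held none of the motifs searched.

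The order of the levels, which FPKM allows to be compared per length, also differed between the groups. It rests on the deposited gene lengths, and for PLAT and SERPINE2 the deposited and RefSeq starts lie 13363 and 38427 bases apart. In the PEFs the means were 391 ± 140 FPKM for SERPINE2, 228 ± 378 for SERPINB2, 111 ± 25 for PLAUR, 76.6 ± 68.0 for SERPINF1, 68.6 ± 30.8 for PLAU and 20 ± 26.6 for PLAT (SD, n = 3). Without line 8 the PEF means were 450 FPKM for SERPINE2, 111 for SERPINF1, 97.1 for PLAUR, 50.9 for PLAU, 9.87 for SERPINB2 and 4.63 for PLAT (n = 2). Every PEF library had SERPINE2 above PLAUR and PLAUR above PLAU, while the places of SERPINB2, SERPINF1 and PLAT changed between lines. In the piPSCs the means were 8.02 ± 7.59 FPKM for PLAU, 7.64 ± 2.79 for PLAT, 7.33 ± 5.59 for SERPINF1, 3.28 ± 2.74 for SERPINE2, 0.740 ± 0.957 for PLAUR and 0.0111 ± 0.00991 for SERPINB2 (SD, n = 3). The first 4 of these overlapped in range, so neighbours among them did not differ beyond their spread. PLAT was the highest of the 6 genes in piPSC5, and PLAU was the highest in piPSC7 and piPSC8.

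The make-up of the activators was described by the share of PLAU in the summed FPKM of PLAU and PLAT. Its size depends on the deposited length of PLAT. For lines 5, 7 and 8, that share was 90.3%, 93.3% and 67.2% in the PEFs, against 12.5%, 59.1% and 64.6% in the piPSCs of these lines. Each piPSC share was below each PEF share, with piPSC8 and PEF8 closest. The sum itself was 59.8, 51.2 and 155 FPKM in the PEFs and 10.9, 10.9 and 25.2 FPKM in the piPSCs. Receptor and ligand also changed in proportion, with 1.64, 2.21 and 1.32 FPKM of PLAUR for each FPKM of PLAU in the PEFs. In the piPSCs this ratio was 1.36 in line 5, 0.0341 in line 7 and 0.00967 in line 8, so that line 5 kept a PEF-like ratio at a low level of both genes and lines 7 and 8 did not. No test was made of these ratios.

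The serpins of the group were described the same way, by the share of each in the summed FPKM of SERPINE2, SERPINB2 and SERPINF1. These shares likewise depend on the deposited length of SERPINE2. SERPINE2 made up 86.6% of this sum in PEF5 and 69.5% in PEF7, while SERPINB2 made up 70.3% in PEF8. The leading serpin of PEF8 was thus the smallest part in the other PEFs, at 1.28% and 2.29%. In piPSC5 and piPSC7, SERPINE2 (50.3% and 57.2%) and SERPINF1 (49.6% and 42.8%) shared the sum, and in piPSC8 SERPINF1 made up 97.1%. The sum itself was 629, 512 and 945 FPKM in the PEFs of lines 5, 7 and 8 and 11.6, 6.33 and 13.9 FPKM in their piPSCs, so these shares divide a much smaller total after reprogramming. RNA levels say nothing of the active protein.

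**Figure D4:**
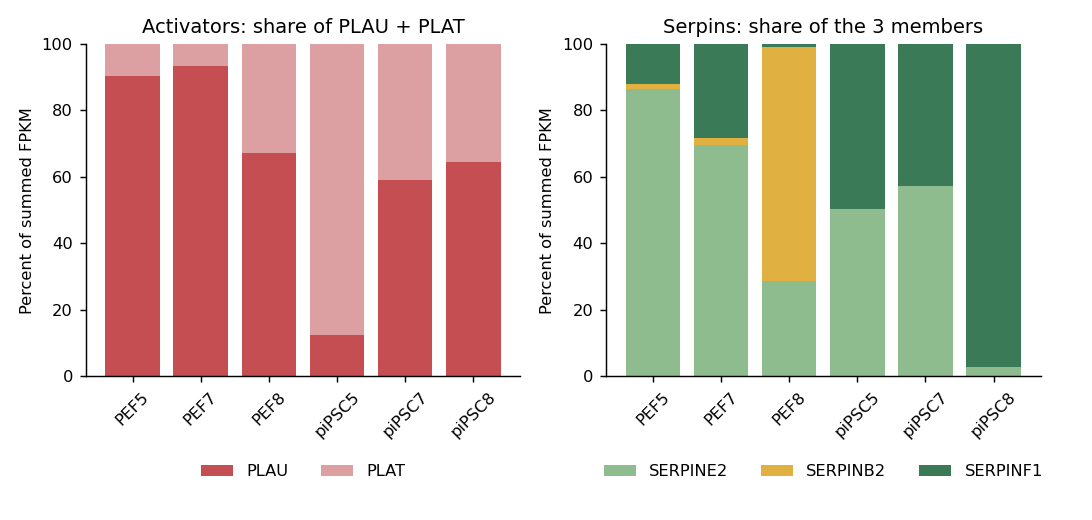
The left bars split the summed FPKM of the activators between PLAU and PLAT in each of the 6 libraries, and the right bars split that of SERPINE2, SERPINB2 and SERPINF1, in percent. PLAU makes up 67.2% to 93.3% of the activators in the PEFs and 12.5% to 64.6% in the piPSCs, and SERPINB2 makes up most of the serpin sum in PEF8 (70.3%) and at most 2.29% elsewhere.

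Other genes of the plasminogen system were taken from a list of 24 symbols, of which 18 were in the table and 8 were tested. Of these, 4 (50%) were called lower and 0 higher, against 16.7% and 20.2% of all genes tested. The median log2 change was -1.12, against 0.20 over all genes tested. All 5 lists used here were chosen with earlier results of these data known, so their counts are descriptions. PLG, which encodes plasminogen, was not analysed here. ANXA2, part of a surface docking site for plasminogen, fell by 3.49 (limma adjusted p = 0.00314), while its partner S100A10 gave -1.09 (adjusted p = 0.328) with 72.5 FPKM in piPSC7 against 14.0 in piPSC5 and 4.29 in piPSC8. ENO1, a glycolytic enzyme that also binds plasminogen at the surface, fell by 1.16 (adjusted p = 0.00229). The plasminogen receptor PLGRKT was at 12.2 to 16.3 FPKM in the PEFs and 12.3 to 17.7 FPKM in the piPSCs (log2 change 0.13, adjusted p = 0.624, 95% interval -0.36 to 0.61). The plasmin inhibitors SERPINF2 and A2M and the carboxypeptidase CPB2, which protects fibrin, were at 0.263 FPKM or below in all 6 libraries and were not tested.

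Partners of the urokinase receptor and receptors that clear protease complexes were taken from a list of 25 symbols. Of the 18 tested, 12 (66.7%) were called lower and 0 higher, against 16.7% and 20.2% of all genes tested (median log2 change -2.69). LRP1, which internalises complexes of urokinase with its inhibitors, fell by 4.24 (limma adjusted p = 0.00118). MRC2, a collagen receptor that associates with PLAUR, fell by 5.31 (adjusted p = 0.000179). Of the integrin chains, ITGB3 fell by 2.86 (adjusted p = 0.00301) and ITGAV by 1.20 (adjusted p = 0.0217), whereas ITGB1 gave -0.58 (adjusted p = 0.0777). VTN, a matrix protein that PLAUR binds, was low throughout, at 1.29 to 2.30 FPKM in the PEFs and at most 0.0965 FPKM in the piPSCs (log2 change -1.40, adjusted p = 0.00369).

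Substrates and downstream factors of urokinase and plasmin made another list of 29 symbols. Of 20 tested, 11 (55%) were called lower and 0 higher, against 16.7% and 20.2% of all genes tested (median log2 change -2.04). The matrix protease MMP3, which plasmin activates, fell by 7.80 (limma adjusted p = 0.00298) and was at 300 FPKM in PEF5, 115 in PEF7 and 2336 in PEF8 (without line 8, -6.10, adjusted p = 0.0141). PEF8 was therefore the highest PEF line for MMP3 as well as for PLAU, PLAUR, PLAT and SERPINB2. LTBP1, a matrix anchor of latent TGF-beta, fell by 4.98 (adjusted p = 0.000426), and TGFB1 gave -1.03 (adjusted p = 0.0793). MET, the receptor of hepatocyte growth factor, fell by 1.73 (adjusted p = 0.0469), whereas HGF itself gave -0.40 (adjusted p = 0.692). For HGF the lines moved apart, to 357% of the PEF level in line 5, 142% in line 7 and 4.99% in line 8. F2R, a thrombin receptor, gave -0.73 (adjusted p = 0.429). In lines 5, 7 and 8 it was at 0.28, 0.142 and 6.29 FPKM in the PEFs and at 0.262, 0.863 and 0 FPKM in the piPSCs. MMP1 was not analysed here.

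Transcription factors of the AP-1, ETS and RUNX families are known to act on the PLAU and PLAUR genes in other mammals. Of 17 tested in a list of 20, 7 (41.2%) were called lower and 0 higher, against 16.7% and 20.2% of all genes tested. The median log2 change was -0.50. FOSL1 fell by 2.09 (limma adjusted p = 0.00288), ETS1 by 3.28 (adjusted p = 0.000831), ETS2 by 3.41 (adjusted p = 0.00046) and RUNX1 by 1.88 (adjusted p = 0.0158). RUNX2 gave 0.55 (adjusted p = 0.454) and RUNX3 -0.82 (adjusted p = 0.0854), and neither was called. FOS gave 0.34 (adjusted p = 0.843) and JUN 0.24 (adjusted p = 0.785), with JUN at 523 FPKM in piPSC7 and at 86.3 and 90.6 FPKM in piPSC5 and piPSC8. The windows of PLAU, PLAUR, SERPINB2 and SERPINF1, the last not printed, were also searched for TATAAA (7.3% of all windows) and for the ETS letters CCGGAA (15.8%) on both strands, and neither was found. No 2 matches of different motifs overlapped. Other forms of ETS sites were not searched, so the windows may hold them. Sequence outside these windows was not searched, so sites further away may have been missed. PLAT and SERPINE2 were not searched, because their deposited and RefSeq starts lie 13363 and 38427 bases apart.

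Of 21 other serpin genes examined, 9 were tested. Of these, 3 (33.3%) were called lower and 0 higher, against 16.7% and 20.2% of all genes tested (median log2 change -1.02). The medians of the single lines were -0.84, 0.00 and -2.61, and without line 8 the median was -0.31. The 2 largest decreases among them were those of SERPINB8 (-2.85, limma adjusted p = 0.00442) and SERPINB6 (-2.36, adjusted p = 0.0031), inhibitors that act inside cells. SERPINH1, a collagen chaperone, fell by 1.93 (adjusted p = 0.0121). SERPING1, the C1 inhibitor of the complement system, was at 13.1, 10.3 and 6.50 FPKM in the PEFs and at 6.85, 42.4 and 30.5 FPKM in the piPSCs (log2 change 1.06, adjusted p = 0.202). It was called higher without piPSC5 (1.80, limma adjusted p = 0.012) and without line 5 (2.01, adjusted p = 0.0232). SERPINI1, a neuronal inhibitor of tissue plasminogen activator, was at 0.0449 to 0.495 FPKM in the PEFs and at 0.0631 to 1.13 FPKM in the piPSCs, below the filter. SERPINA5 was not analysed here. In the 5 lists and among the members, 0 genes were higher in piPSCs at an unadjusted limma p under 0.05 as well. Voom on the recovered fragments called SERPIND1 (heparin cofactor II, a thrombin inhibitor) higher, at 0.175 to 0.207 FPKM in the PEFs and 0.380 to 1.18 FPKM in the piPSCs.

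**Figure D5:**
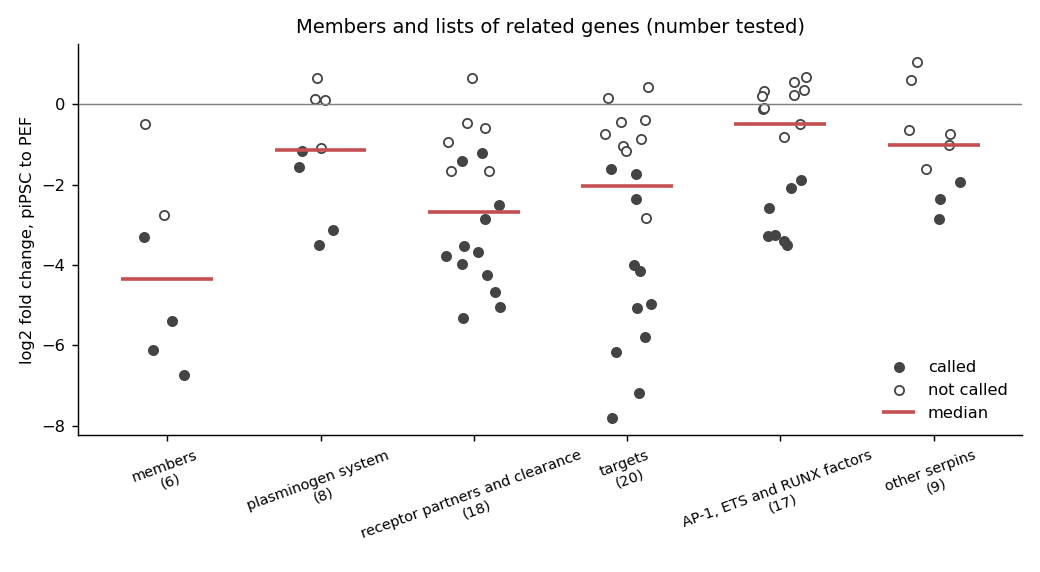
Each point is a tested gene, drawn by its limma log2 difference of piPSCs from PEFs, for the 6 members and the 5 lists, with called genes filled, other genes open and a red line at the median. Called genes lie below 0 in every list, and the median runs from -2.69 for receptor partners and clearance to -0.50 for the AP-1, ETS and RUNX factors.

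The genes whose pattern over the 6 libraries was nearest to each member were taken by Pearson's r of log2(FPKM + 1) among 11411 named genes. With 2 groups of 3 libraries this measure is mainly set by the difference between the groups, and it is given as a description. For PLAUR these were PDE7B (r = 0.9996), MEF2D (0.9990) and DCHS1 (0.9989), and 1025 genes had an r above 0.95. For SERPINE2 they were IKBKE (0.9988), ARSK (0.9983) and SDC2 (0.9980), with 938 genes above 0.95. Patterns that set single lines apart had fewer near genes. PLAU had 52 genes above 0.95, led by TPST1 (0.9950), SLC25A26 (0.9907) and CD164 (0.9893). PLAT had 23, led by ADAR (0.9946), NRF1 (0.9908) and FBXO39 (0.9875), each highest in PEF8. SERPINB2 had 248, led by LCP1 (0.9974), TFAP2C (0.9972) and RASGEF1B (0.9959), and SERPINF1 had 30, led by RCN1 (0.9877), NDUFA4L2 (0.9826) and PPM1A (0.9807).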

How the data were processed

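RNA-seq of 3 PEF and 3 piPSC lines was used, 1 library each. The authors deposited FPKM values per gene on Sscrofa11.1. The submitters' processing notes name Bowtie2 2.2.3, HISAT2 2.1.0 and HTSeq 0.6.0, with no roles given. The FPKM of all 18007 genes (100%) were whole multiples of 1 fragment within 0.001, so fragments were recovered. Strand of counting is not given in the sources used here.

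Differences were tested with limma 3.58.1 in R 4.3.3 for 12428 genes with a mean of at least 0.5 FPKM. The scale was log2(FPKM + 1), which understates changes of low genes. The fit was unpaired, after the unpaired test that the study names for its statistics in general. It was also run on simulated data with 200 changed genes and no line effect, which checks the code and not its behaviour on these lines. The study's own RNA-seq comparison was made within matched lines, so the ratio within each line is given as well. With 3 against 3 an exact permutation p cannot go below 0.1, so none was computed. Nothing says that the lines came from separate litters. Each piPSC line comes from the PEF line of its number, so lines are paired by origin. Deviations of same-numbered libraries correlated at 0.0921, 0.0946 and 0.08, and those of different-numbered libraries at -0.121 to 0.0553. Each same-numbered value was thus above each different-numbered value. The replicate block is an alternative, as are other scalings, pseudocounts, filters, voom on fragments and left-out libraries; leaving out whole lines was added after the values were seen. Named genes were the members, set genes of 5 lists, the 2 called serpins with the largest decrease, and the 3 nearest genes by r. THY1, DCN, COL1A1, the single pluripotency markers, DDX3Y, SERPIND1, RUNX2, RUNX3, single markers of other cell types and the neighbours of SERPINB2 were picked after their values were seen. The lists leave out 1 gene that is not reported here. Members and lists were chosen with earlier results of these data known. Windows were 250 bases before 9273 gene starts on which the table and RefSeq (Sscrofa11.1) lie within 500 bases. Chromatin and methylation data of the study were not used here.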

Additional observations from a re-analysis of the deposited data

Results flagged for a closer look

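PLAT and SERPINF1 moved in line 8 against lines 5 and 7. For PLAT, the log2 ratio of (FPKM + 1) between piPSC and PEF was -2.38 in line 8, against 0.63 in line 5 and 0.29 in line 7. For SERPINF1 it was 0.57 in line 8, against -3.52 in line 5 and -5.30 in line 7. With 1 library per line and group, the difference between the lines was not tested. Line 8 went against both other lines in 10.7% of the 12428 genes tested, line 7 in 8.03% and line 5 in 5.64%.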

How the results depend on the processing

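The calls of PLAUR and SERPINE2 held under all 18 alternatives, with changes from -7.96 to -5.71 and from -7.42 to -6.06. Leaving out 1 library or 1 line gave -6.68 to -5.71 for PLAUR, -7.22 to -6.06 for SERPINE2, -3.97 to -2.53 for PLAU, -1.18 to 0.59 for PLAT, -6.51 to -3.41 for SERPINB2 and -4.41 to -1.47 for SERPINF1. PLAT reversed without PEF8 (0.59) and without line 8 (0.46). PLAU lost its call without line 7 (-3.57). SERPINB2 lost it with no filter (-5.39, adjusted p = 0.0502) and with voom (-11.15, adjusted p = 0.164), where 2 piPSC libraries held 1 fragment and 1 held 0. SERPINF1 gained a call when libraries were rescaled to a sum of 1000000 (-3.17, adjusted p = 0.0455), without PEF8 (-3.89) and without line 8 (-4.41). The replicate block changed no call of a member (PLAU adjusted p = 0.00707, SERPINB2 0.0303, SERPINF1 0.113), and it called 2023 genes lower against 2070. Voom called 2239 genes lower and 2891 higher. Genes called lower numbered between 1281 and 2066 with 1 library or line left out, with 1281 without line 5. The rescalings moved the median change of all genes from 0.20 to -0.01 and -0.06.

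List medians moved when libraries were rescaled to a sum of 1000000 (plasminogen system -1.47, AP-1, ETS and RUNX -0.91, receptor partners -3.36, targets -2.86), with a pseudocount of 0.1 (receptor partners -3.75, targets -3.16), with no filter (plasminogen system -0.06, receptor partners -1.65, targets -1.10) and with voom (receptor partners -4.17, targets -3.35). The median of the other serpins ran from -1.69 to -0.31 with 1 library or line left out (-0.59 without PEF8, -1.56 without piPSC7) and was -0.03 with no filter and -1.94 with voom. Voom also called 1 other serpin higher. With 1 library or line left out, the medians ran from -0.94 to -0.16 for AP-1, ETS and RUNX and from -1.41 to -0.62 for the plasminogen system (-0.62 without line 8), called lower ran from 7 to 12 among the targets and from 1 to 4 among the other serpins, and called higher from 0 to 1 among the latter. Where no value above shows it, the cause was not tested. The 10 to 160 fragments of PLAUR and 16 to 334 of SERPINE2 in the piPSCs limit how well their low levels are known.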
